A study of Caenorhabditis elegans with 9 samples.

Results

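Small heat shock proteins of *C. elegans* are described here through 10 genes, hsp-16.2 (Y46H3A.3), hsp-16.41 (Y46H3A.2), hsp-12.1 (T22A3.2), hsp-12.2 (C14B9.1), hsp-12.3 (F38E11.1), hsp-12.6 (F38E11.2), hsp-17 (F52E1.7), hsp-25 (C09B8.6), hsp-43 (C14F11.5) and sip-1 (F43D9.4). The genes were listed by name and not by a cut on their values, though with earlier results of these data known. Every probe set that the array's annotation gives to one of them was taken. They make up 10 of 17138 genes that have their own probe set, and 11 of the 22548 probe sets that are not controls, since sip-1 has 2 probe sets. Of these 11 probe sets, 0 are annotated to more than 1 gene. Those of hsp-25 and hsp-43 and 1 of sip-1 are marked by the maker as matching several transcripts. Small heat shock proteins share an alpha-crystallin domain and act as chaperones that hold unfolding proteins without using ATP. Some, above all the HSP-16 proteins, are made in quantity when worms meet heat or other protein-damaging stress under the heat shock factor HSF-1, whereas others are made at set stages or in set tissues without stress. In ageing worms the insulin-regulated factor DAF-16 is known to act on several of them together with HSF-1.

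RNA of whole worms of the wild type strain N2 was hybridized to 9 GeneChip arrays of the *C. elegans* genome. L4 larvae, Day 6 adults and Day 15 adults each had 3 arrays, from 3 populations propagated independently. All worms were kept at 20°C on the *E. coli* strain OP50 and no heat shock is described for any of them. Day 6 and Day 15 count days of adulthood, and both adult groups lived on plates with 0.05 mg per mL of FUdR, a drug that blocks DNA synthesis and so keeps the eggs from giving progeny, whereas L4 larvae had not met it. Age and FUdR therefore cannot be told apart in comparisons with L4 larvae. Day 15 and Day 6 worms shared the treatment, but Day 15 worms had lived on it longer. Age and length of exposure to FUdR therefore cannot be told apart between them either.

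Values are log2 expression values from GCRMA, a method that subtracts background estimated from the sequence of each probe and scales arrays to each other, so that a difference of 1 is a 2-fold change. They compare 1 probe set between arrays and not 1 gene with another. A probe set was tested where its mean reached 4 in at least 1 age, which 15452 probe sets and all 11 of the small heat shock genes did, and values under 4 lie near the background. Differences were tested with limma, all 9 arrays entering a single fit, and rose or fell is written only where the adjusted p (Benjamini-Hochberg over the 15452 probe sets) was under 0.05 and the change at least 2-fold. Each age has 3 arrays, whose number limits the precision, and errors are SD over 3 arrays for means and standard errors of the fit for changes.

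Array medians lay between 5.42 and 5.73 and array maxima between 14.11 and 14.37. A pair of L4 arrays stood apart from the rest of their age. L4 replicate 2 was at least 2 above both other L4 arrays at 258 tested probe sets and as far below both at 434, and L4 replicate 1 was above both at 76, while no such count on the other 7 arrays was over 11. Because all ages share 1 estimate of the spread, the L4 arrays enter the standard error of Day 15 against Day 6 as well.

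The family did not move as 1 group. Between Day 15 and Day 6, 2 of the 11 probe sets rose (hsp-12.6 and hsp-12.3), 1 fell (hsp-25) and 8 were not called, where 31.5% of all tested probe sets were called, 14.9% as higher and 16.5% as lower. Their median change was 0.06, against -0.02 over all tested probe sets. Between Day 6 and L4, 4 probe sets of 3 genes rose (hsp-43, both of sip-1 and hsp-12.6), 3 fell (hsp-12.1, hsp-12.2 and hsp-25) and 4 were not called, against 52.9% called over all probe sets, 30.1% higher and 22.8% lower. The hsp-12.6 values of that rise all lay under 4, near the background. Between Day 15 and L4, 6 probe sets of 5 genes rose (hsp-16.2, hsp-16.41, hsp-12.6, hsp-43 and both of sip-1), 3 fell (hsp-12.1, hsp-12.2 and hsp-25) and 2 were not called (hsp-12.3 and hsp-17), against 58.1% called over all probe sets, 32.5% higher and 25.7% lower. Each of these counts is small and is read beside those shares, as many genes of the worm differed between the ages.

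**Figure D1:**
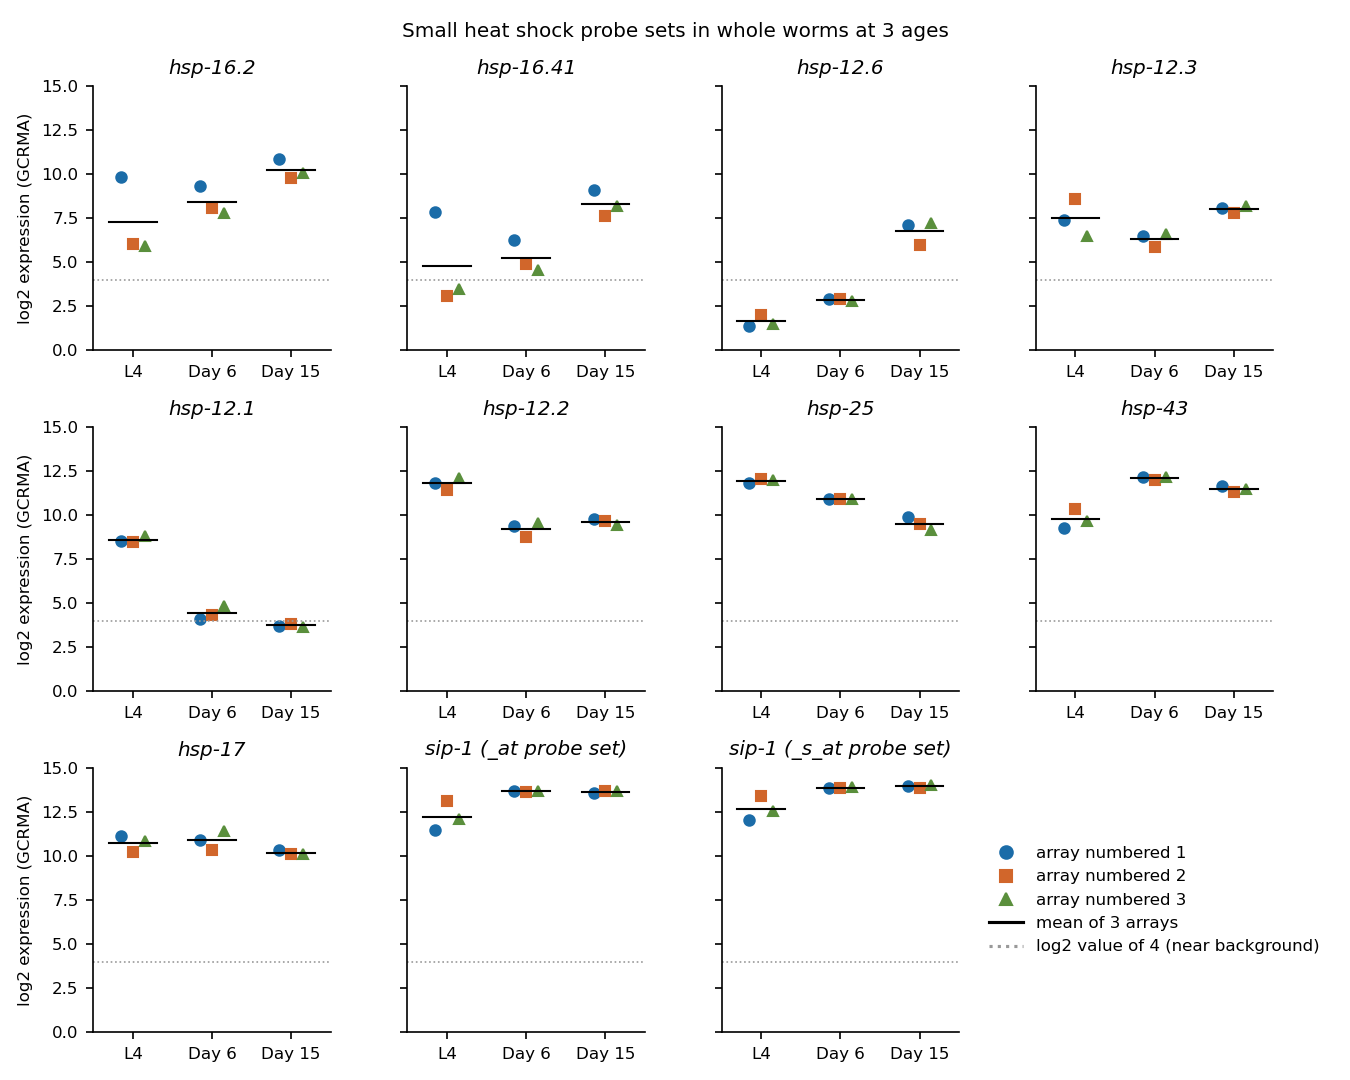
Log2 expression value (vertical axis) of each small heat shock probe set on every array, by age (horizontal axis: L4, Day 6, Day 15), with points for arrays, lines for the mean of 3 arrays and a dotted line at 4. hsp-12.6 lay between 5.96 and 7.25 at Day 15 and under 3 on all earlier arrays, whereas hsp-12.1 lay above 8 only in L4 larvae.

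**Figure D2:**
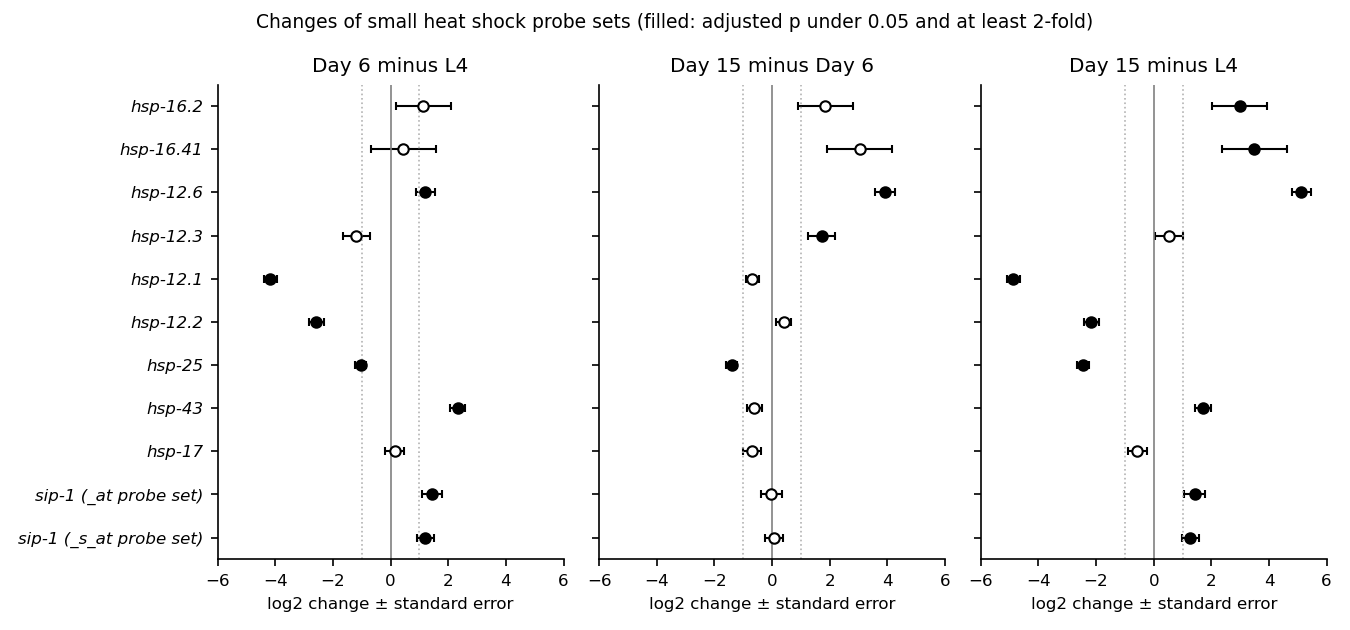
Change of each small heat shock probe set on the log2 scale with bars of 1 standard error from the limma fit, in 1 panel for each pair of ages, with filled points for those called and dotted lines at 2-fold. The bars of hsp-16.2 (0.95) and hsp-16.41 (1.13) are the widest, and hsp-12.6 rose by 3.92 between Day 15 and Day 6 with a standard error of 0.33.

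The heat-inducible HSP-16 genes had their highest means at Day 15, with a wide spread between L4 arrays. hsp-16.2, whose promoter is widely used as a reporter of stress, had log2 values of 9.82, 6.03 and 5.95 on the L4 arrays, 9.32, 8.09 and 7.81 at Day 6, and 10.88, 9.78 and 10.08 at Day 15. All Day 15 arrays lay above all Day 6 arrays, and the first L4 array lay above all Day 6 arrays and above the lowest Day 15 array. At Day 15 hsp-16.2 averaged 10.25 ± 0.57 against 7.27 ± 2.21 in L4 larvae, a rise of 2.98 (SE 0.95, adjusted p = 0.0194) or 7.89-fold. Between Day 15 and Day 6 (8.41 ± 0.80) the change of 1.84 missed the threshold (SE 0.95, adjusted p = 0.155), as did the change of 1.14 between Day 6 and L4 (adjusted p = 0.312).

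hsp-16.41 is the neighbour of hsp-16.2, with 0 protein-coding genes starting between them in the RefSeq gene table (assembly WBcel235). It had log2 values of 7.84, 3.07 and 3.50 in L4 larvae, 6.24, 4.93 and 4.58 at Day 6, and 9.08, 7.62 and 8.18 at Day 15. Again the Day 15 arrays lay above all Day 6 arrays, and the first L4 array lay above all of Day 6 and above the lowest of Day 15, while the other L4 arrays were under 4. At Day 15 it averaged 8.29 ± 0.74 against 4.80 ± 2.64 in L4 larvae, a rise of 3.49 (SE 1.13, adjusted p = 0.0204) or 11.2-fold, and at least 8.07-fold with values under 4 set to 4. Against the Day 6 mean of 5.25 ± 0.88 the Day 15 value was 3.04 higher and just outside the threshold (SE 1.13, adjusted p = 0.0564).

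The calls of both genes turned on single arrays and on which arrays set the spread. With only the Day 6 and Day 15 arrays fitted, all of them kept, the change between those ages passed the test for both genes. It was 1.84 for hsp-16.2 (SE 0.42, adjusted p = 0.00518) and 3.04 for hsp-16.41 (SE 0.48, adjusted p = 0.000699). On the first L4 array hsp-16.41 lay 4.34 and hsp-16.2 3.79 above the higher of the other L4 arrays, ranks 1 and 3 of 15452 probe sets for that distance. Without L4 replicate 1 the change between Day 15 and Day 6 kept its size and passed the test for both genes, with 1.84 for hsp-16.2 (SE 0.42, adjusted p = 0.00745) and 3.04 for hsp-16.41 (SE 0.49, adjusted p = 0.0012). The change between Day 6 and L4 then also passed, at 2.42 for hsp-16.2 (adjusted p = 0.00232) and 1.97 for hsp-16.41 (adjusted p = 0.0133). In the other direction, the rise between Day 15 and L4 was lost without L4 replicate 3 (adjusted p = 0.0703 for hsp-16.2 and 0.0721 for hsp-16.41) and without Day 15 replicate 1 (adjusted p = 0.0661 and 0.0693). For each gene it was lost in 5 of 24 alternative settings, with adjusted p of up to 0.121 for hsp-16.2 and 0.128 for hsp-16.41. With the methods' t-test before adjustment, 4 small heat shock probe sets were called higher there in place of 6. The gene hsp-16.41 was called between Day 15 and Day 6 without L4 replicate 2 as well (adjusted p = 0.0228).

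In every age the highest value of both genes was on the array numbered 1. The same held for the probe set shared by hsp-16.1 and hsp-16.11, and for the one shared by hsp-16.48 and hsp-16.49, near-identical genes that these probe sets cannot tell apart. The first of these sets had 11.73, 8.97 and 9.13 in L4 larvae, 11.53, 10.68 and 10.72 at Day 6, and 12.39, 11.74 and 12.34 at Day 15. The second had 10.61, 8.08 and 7.86, then 10.34, 9.12 and 9.36, and then 11.63, 10.41 and 11.10 at the same ages. Both rose between Day 15 and L4, by 2.21 (SE 0.66, adjusted p = 0.0143) and by 2.20 (SE 0.70, adjusted p = 0.0194), and neither was called between Day 15 and Day 6 (1.18, adjusted p = 0.187, and 1.44, adjusted p = 0.133). Over the 9 arrays the 6 pairs of these 4 HSP-16 probe sets correlated with Pearson's r of 0.956 to 0.99, and their deviations from the age means with r of 0.973 to 0.995. The deviations were widest in L4 larvae, where the SD was 1.53 to 2.64, against 0.36 to 0.88 at the adult ages. The probes of these sets may bind each other's transcripts, and the extent of this was not tested.

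With all 3 arrays numbered 1 left out, a choice made after the data were seen, the Day 15 values of hsp-16.2 were 1.98 above those of Day 6 (adjusted p = 0.00203) and those of hsp-16.41 3.15 above (adjusted p = 0.00097). Against L4 larvae the changes were then 3.94 (adjusted p = 0.000123) and 4.62 (adjusted p = 0.00017). Whether arrays of 1 number shared a day or plate is not given in the sources used here, and the part of such sharing in the HSP-16 values was not tested.

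**Figure D3:**
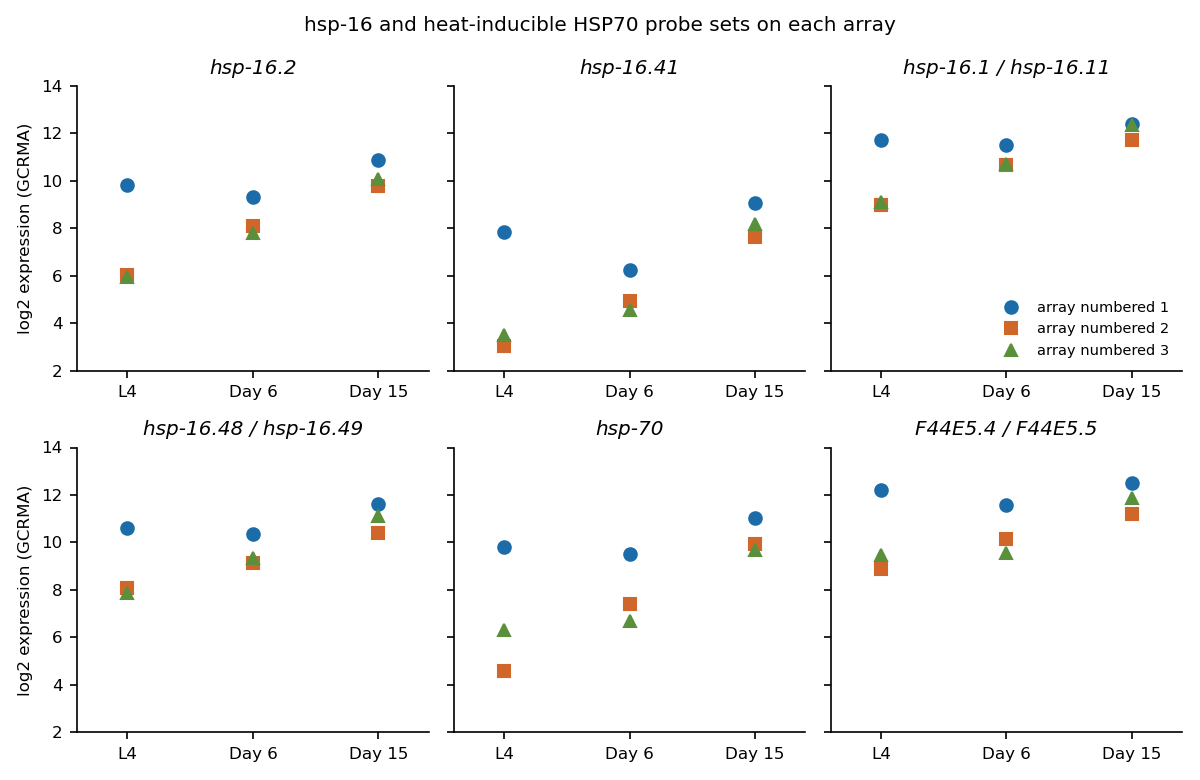
Log2 expression value (vertical axis) of 4 HSP-16 probe sets and 2 probe sets of inducible HSP70 genes at L4, Day 6 and Day 15 (horizontal axis), with 1 panel for each probe set and a circle, square or triangle for the array numbered 1, 2 or 3. The array numbered 1 was the highest at every age, and hsp-16.41 had 7.84 on the first L4 array against 3.07 and 3.50 on the others.

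hsp-16.20 (F08H9.3) and hsp-16.21 (F08H9.4), also next to each other, have a small heat shock domain and a probe set each. hsp-16.20 had 2.39, 2.42 and 2.34 in L4 larvae, 5.41, 5.09 and 3.45 at Day 6, and 7.04, 6.65 and 5.70 at Day 15, so that the ages did not overlap. The L4 arrays lay near the background, and the array numbered 1 was the highest at both adult ages. It rose by 1.81 between Day 15 and Day 6 (SE 0.51, adjusted p = 0.0182) and by 2.27 between Day 6 and L4 (adjusted p = 0.00376). With lower values raised to 4 these changes were 1.63, or 3.1-fold, and 0.83, which is under 2-fold. hsp-16.21 was dimmer, with 4.03, 4.55 and 4.54 at Day 15 against 3.06, 3.06 and 2.83 at Day 6, a rise of 1.39 (SE 0.20, adjusted p = 0.000469) that rests on Day 6 values under 4 and was 0.37, or 1.3-fold, with these raised to 4. ZK1128.7, another gene of this domain, averaged 9.77 in L4 larvae, 7.66 at Day 6 and 7.58 at Day 15, and fell between Day 6 and L4 (SE of the change 0.28, adjusted p = 0.000174). Of the 5 probe sets of other small heat shock genes, 2 rose and 0 fell between Day 15 and Day 6, 1 rose and 1 fell between Day 6 and L4, and 4 rose and 1 fell between Day 15 and L4. Over all tested probe sets the shares were 14.9% higher and 16.5% lower, 30.1% and 22.8%, and 32.5% and 25.7% in the same comparisons. The calls of hsp-16.21 in both Day 15 comparisons and that of hsp-16.20 between Day 6 and L4 are under 2-fold with lower values raised to 4.

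The HSP-12 genes code for the shortest proteins of the family. Of the 4, hsp-12.6 and hsp-12.3 rose between Day 15 and Day 6, whereas hsp-12.1 and hsp-12.2 were highest in L4 larvae. hsp-12.6, a target of DAF-16, had log2 values of 1.40, 2.03 and 1.52 in L4 larvae, 2.89, 2.89 and 2.78 at Day 6, and 7.10, 5.96 and 7.25 at Day 15. All L4 and Day 6 arrays lay under 4, and all Day 15 arrays lay well above it. The Day 15 mean of 6.77 ± 0.71 was 3.92 above the Day 6 mean of 2.85 ± 0.06 (SE 0.33, adjusted p = 2.11e-05), 15.1-fold as measured and at least 6.82-fold with values under 4 set to 4. Against L4 larvae the rise was 5.12 (adjusted p = 1.74e-06), and at least 6.82-fold by the same bound. In all 24 alternative settings the change between Day 15 and Day 6 passed the test, at 2.77 to 4.32. The rise of 1.20 between Day 6 and L4 (SE 0.33, adjusted p = 0.0111) lay wholly under 4, became 0.00 with values under 4 set to 4, and was lost without the 3 arrays numbered 1 (1.06, adjusted p = 0.0973).

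hsp-12.3 lies next to hsp-12.6, with 0 protein-coding genes starting between them, and was lowest at Day 6. It had 7.40, 8.60 and 6.47 in L4 larvae, 6.47, 5.84 and 6.60 at Day 6, and 8.08, 7.78 and 8.20 at Day 15. The Day 15 arrays lay above all Day 6 arrays, and the L4 arrays overlapped both adult ages. At Day 15 it averaged 8.02 ± 0.22 against 6.30 ± 0.41 at Day 6, a rise of 1.72 (SE 0.47, adjusted p = 0.0168) or 3.29-fold. This call was lost without Day 6 replicate 2 (1.49, adjusted p = 0.0655), without Day 15 replicate 1 (1.69, adjusted p = 0.0512), without Day 15 replicate 3 (1.63, adjusted p = 0.0585) and without all 3 arrays numbered 1 (1.77, adjusted p = 0.113). Between Day 6 and L4 (7.49 ± 1.07) the change of -1.19 missed the threshold (SE 0.47, adjusted p = 0.0505) and passed it without L4 replicate 3 (-1.70, adjusted p = 0.00619). Against L4 larvae the Day 15 change was 0.53 (adjusted p = 0.337, 95% interval -0.54 to 1.60), and 1.09 without L4 replicate 2 (adjusted p = 0.0119). Over the 9 arrays hsp-12.3 and hsp-12.6 correlated with r of 0.49.

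hsp-12.1 and hsp-12.2 were highest in L4 larvae. hsp-12.1 had 8.56, 8.46 and 8.81 in L4 larvae, 4.11, 4.31 and 4.87 at Day 6, and 3.72, 3.85 and 3.66 at Day 15. The 3 ages did not overlap, and the Day 15 arrays were all under 4. It fell to 4.43 ± 0.39 at Day 6, against 8.61 ± 0.18 in L4 larvae, a change of -4.18 (SE 0.22, adjusted p = 8.77e-07) or 18.1-fold. Against L4 larvae its Day 15 mean of 3.74 ± 0.10 was 29.2-fold lower as measured and at least 24.4-fold lower with lower values raised to 4. The change of -0.69 between Day 15 and Day 6 had an adjusted p of 0.0335 but was under 2-fold, and so was not called.

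hsp-12.2 had 11.85, 11.45 and 12.11 in L4 larvae, 9.40, 8.74 and 9.53 at Day 6, and 9.76, 9.68 and 9.45 at Day 15. All L4 arrays lay above all adult arrays, and the adult ages overlapped. It fell by 2.58 between Day 6 and L4 (SE 0.26, adjusted p = 3.31e-05) and by 2.17 between Day 15 and L4 (adjusted p = 7.77e-05). The adult ages differed by 0.41, with a 95% interval of -0.18 to 0.99 (adjusted p = 0.244). hsp-12.1 and hsp-12.2 correlated with r of 0.94 over the 9 arrays, 3 of each age.

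Of the members known from muscle, hsp-25 fell with each age and hsp-43 was higher in both adult ages than in L4 larvae. The protein HSP-25 lies at the dense bodies of body wall muscle and in the pharynx and is not known for heat induction. hsp-25 had 11.84, 12.03 and 12.00 in L4 larvae, 10.92 on each of the 3 Day 6 arrays, and 9.87, 9.49 and 9.17 at Day 15. No age overlapped another. It fell by 1.41 between Day 15 and Day 6 (SE 0.20, adjusted p = 0.000423), or 2.66-fold, by 1.04 between Day 6 and L4 (adjusted p = 0.00159), and by 2.45 between Day 15 and L4 (adjusted p = 6.89e-06). Centring each array on its median moved the median change of all probe sets between Day 6 and L4 to 0.44, against 0.23 without it, and left hsp-25 under the 2-fold threshold there (-0.84), as did quantile normalization (-0.96).

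Muscle markers moved beside hsp-25. The median level of 12 muscle genes such as myo-3 and unc-54, which code for myosin heavy chains, was 12.21 to 12.33 in L4 larvae. It lay between 9.94 and 10.21 at Day 6, and between 7.65 and 8.28 at Day 15. Such a median of levels can fall on different genes at different ages. The median change of the 12 was -1.16 between Day 6 and L4 and -1.26 between Day 15 and Day 6. Of the 12, 8 fell and 0 rose between Day 15 and Day 6. Of 9 pharynx markers tested, 1 fell between Day 15 and Day 6 and 7 fell between Day 6 and L4. Over all tested probe sets 16.5% were lower and 14.9% higher between Day 15 and Day 6, and 22.8% were lower between Day 6 and L4. Fewer cells of a type and less RNA per cell cannot be told apart in whole worms, and the part of muscle content in the hsp-25 values was not tested.

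hsp-43 codes for a larger member of the family found in body wall muscle, the spermathecal valve and the vulva. It had 9.29, 10.34 and 9.68 in L4 larvae, 12.14, 12.00 and 12.16 at Day 6, and 11.66, 11.29 and 11.49 at Day 15. The 3 ages did not overlap, with Day 6 highest. It rose by 2.33 between Day 6 and L4 (SE 0.26, adjusted p = 6.65e-05), or 5.03-fold, and by 1.71 between Day 15 and L4 (adjusted p = 0.000358). At Day 15 it was 0.62 lower than at Day 6, which missed the threshold (adjusted p = 0.0872, 95% interval -1.21 to -0.03). Of the 12 muscle markers, 0 rose, 6 fell and 6 were not called between Day 6 and L4, where hsp-43 rose. Over all tested probe sets 30.1% were higher and 22.8% lower there.

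sip-1 codes for a small heat shock protein of oocytes and embryos and was near the top of the scale in adults. Its first probe set had 11.46, 13.11 and 12.11 in L4 larvae, 13.67, 13.63 and 13.71 at Day 6, and 13.60, 13.67 and 13.67 at Day 15. The second, marked by the maker as matching several transcripts, had 12.06, 13.41 and 12.57 in L4 larvae, 13.89, 13.87 and 13.91 at Day 6, and 13.99, 13.86 and 14.01 at Day 15. Both were lower on all L4 arrays than on any adult array, and L4 replicate 2 was the highest of the larvae. They rose by 1.44 (SE 0.35, adjusted p = 0.00586) and by 1.21 (SE 0.30, adjusted p = 0.00645) between Day 6 and L4. Without L4 replicate 1 the second was under 2-fold there, at 0.90. Day 15 differed from Day 6 by -0.02 (adjusted p = 0.968, 95% interval -0.82 to 0.78) and 0.06 (adjusted p = 0.891, 95% interval -0.62 to 0.75). Adult values lay within 1 of the array maxima, close to the top of the scale.

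Oocyte markers were also lower in L4 larvae than in adults, with the same order of the L4 arrays as sip-1. The median of 13 oocyte genes, among them the yolk receptor gene rme-2, was 8.44, 11.18 and 9.44 on the L4 arrays in order of number, between 12.07 and 12.40 at Day 6, and between 11.57 and 11.98 at Day 15. All 13 rose between Day 6 and L4, with a median change of 2.27, and 0 were called between Day 15 and Day 6. Over all tested probe sets 30.1% were higher in the first comparison and 31.5% were called in the second. L4 replicate 2, highest of the larvae for sip-1 and hsp-43, was also highest for these markers. Within ages, the deviations of hsp-43 correlated with those of the sip-1 probe sets with r of 0.92 and 0.96 over the 9 arrays. Most of the spread behind these r lay in the L4 arrays. There the SD was 0.83 and 0.68 for sip-1 and 0.53 for hsp-43, against at most 0.19 at either adult age. The part of the germ line in the values of both genes was not tested.

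**Figure D4:**
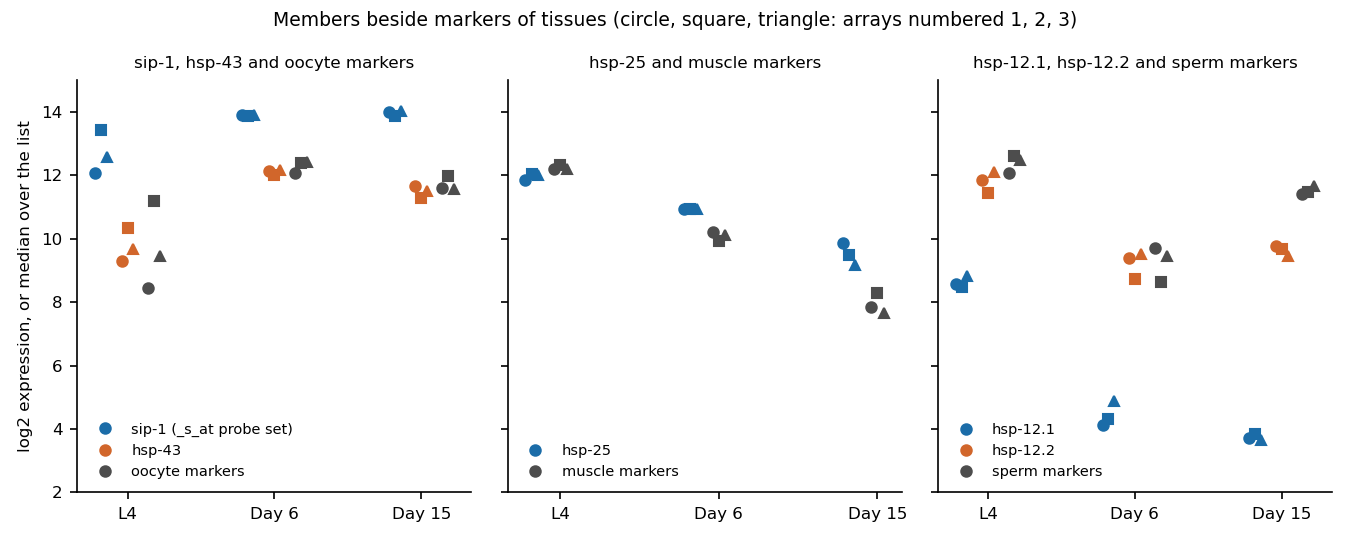
Log2 values (vertical axis) of sip-1 and hsp-43 beside the median of the oocyte markers, of hsp-25 beside that of the muscle markers, and of hsp-12.1 and hsp-12.2 beside that of the sperm markers, at each age (horizontal axis), with a circle, square or triangle for the array numbered 1, 2 or 3. On the L4 arrays the oocyte median was 8.44, 11.18 and 9.44, and sip-1 was highest on the same array, the one numbered 2.

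hsp-17 was not called between any ages. It had 11.17, 10.25 and 10.88 in L4 larvae, 10.93, 10.34 and 11.44 at Day 6, and 10.37, 10.10 and 10.14 at Day 15, so that all ages overlapped. The change was -0.70 between Day 15 and Day 6 (SE 0.32, adjusted p = 0.111, 95% interval -1.42 to 0.02), 0.14 between Day 6 and L4 (adjusted p = 0.722, 95% interval -0.59 to 0.86) and -0.56 between Day 15 and L4 (adjusted p = 0.141, 95% interval -1.29 to 0.16).

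Markers of the other tissues give the setting of these values. The median of the sperm markers lay between 12.08 and 12.62 in L4 larvae, 8.64 and 9.70 at Day 6, and 11.40 and 11.67 at Day 15. All 14 sperm probe sets tested rose between Day 15 and Day 6 and all 14 fell between Day 6 and L4. Their median changes were 1.845 and -2.155, against 14.9% higher and 22.8% lower over all tested probe sets. Most of these sets are of the msp family, and the set annotated to 17 genes includes msp-78 and msp-19, which have their own sets. They are therefore not 14 separate readings. hsp-12.3 was also lowest at Day 6. hsp-12.1 and hsp-12.2 were likewise lower at Day 6 than in L4 larvae, but their Day 15 means of 3.74 and 9.63 stayed near the Day 6 means of 4.43 and 9.22. The part of sperm content in the values of these 3 genes was not tested. Of 13 intestine markers 9 fell and 0 rose between Day 15 and Day 6. In the same comparison 2 of 8 epidermis markers fell and 1 rose, and 2 of 9 neuron markers fell and 0 rose. Over all tested probe sets 16.5% were lower and 14.9% higher there, and the small epidermis and neuron counts lie near these shares.

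Of the genes known to control small heat shock genes, 10 were bright enough to test, and 2 rose and 0 fell between Day 15 and Day 6. hsf-1, the gene of the heat shock factor, had 7.26, 7.55 and 6.78 in L4 larvae, 9.10, 9.24 and 8.49 at Day 6, and 9.38, 9.45 and 8.87 at Day 15. Both adult ages lay above all L4 arrays and overlapped each other, with a rise of 1.75 between Day 6 and L4 (SE 0.29, adjusted p = 0.000629) and a change of 0.29 between Day 15 and Day 6 (adjusted p = 0.457). The 2 genes called between Day 15 and Day 6 were ddl-1, whose protein binds HSF-1 together with HSB-1 and holds it inactive, with a rise of 1.22 (SE 0.25, adjusted p = 0.00357), and the sirtuin gene sir-2.1, with a rise of 1.00 (SE 0.16, adjusted p = 0.000766). hsb-1 was 0.71 lower at Day 15 than at Day 6 with an adjusted p of 0.0322, which is under 2-fold. The gene daf-16 changed by 0.16 in that comparison (adjusted p = 0.455), the genes daf-2, hcf-1 and smk-1, whose proteins act on or with DAF-16, by 0.55, 0.34 and 0.55, skn-1 by -0.01 and pqm-1 by -0.26, none of them called. Between Day 6 and L4, 4 of the 10 rose (hsf-1, ddl-1, hcf-1 and daf-2) and 0 fell, and between Day 15 and L4, 6 rose and 0 fell, against 30.1% and 32.5% higher over all probe sets and 14.9% between Day 15 and Day 6. The rise of daf-2 between Day 6 and L4, whose L4 mean was 3.66, was at least 5.74-fold with lower values raised to 4. hsf-2 and ddl-2 had means under 4 at every age.

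The larger chaperones with which small heat shock proteins share clients were mostly not called between Day 15 and Day 6. Over all tested probe sets 31.5% were called there. Of 8 HSP70 probe sets 0 were called in that comparison, and of 10 genes of HSP90 and its co-chaperones only sti-1, which links HSP70 and HSP90, was called, with a rise of 1.16 (SE 0.25, adjusted p = 0.00531). The median changes were 0.26 for HSP70 and 0.25 for HSP90. hsp-70 (C12C8.1), the heat-inducible HSP70 gene, had 9.82, 4.59 and 6.31 in L4 larvae, 9.50, 7.41 and 6.71 at Day 6, and 11.02, 9.95 and 9.70 at Day 15. It shared with the HSP-16 genes the highest value on the array numbered 1 at every age, rose by 3.32 between Day 15 and L4 (SE 1.22, adjusted p = 0.0349), and was 2.35 higher at Day 15 than at Day 6 without passing the test (SE 1.22, adjusted p = 0.156). The set shared by the inducible pair F44E5.4 and F44E5.5 was also highest on those arrays and changed by 1.44 (adjusted p = 0.21). hsp-1, a constitutive HSP70 gene, averaged 13.24 at Day 15 and 13.02 at Day 6. Between these ages hsp-3 changed by -0.94 (adjusted p = 0.00117) and hsp-4 by 0.87 (adjusted p = 0.0141). Both changes were under 2-fold and so were not called. The rest of the list, hsp-6, stc-1 and hsp-110, changed by 0.20 to 0.30.

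**Figure D5:**
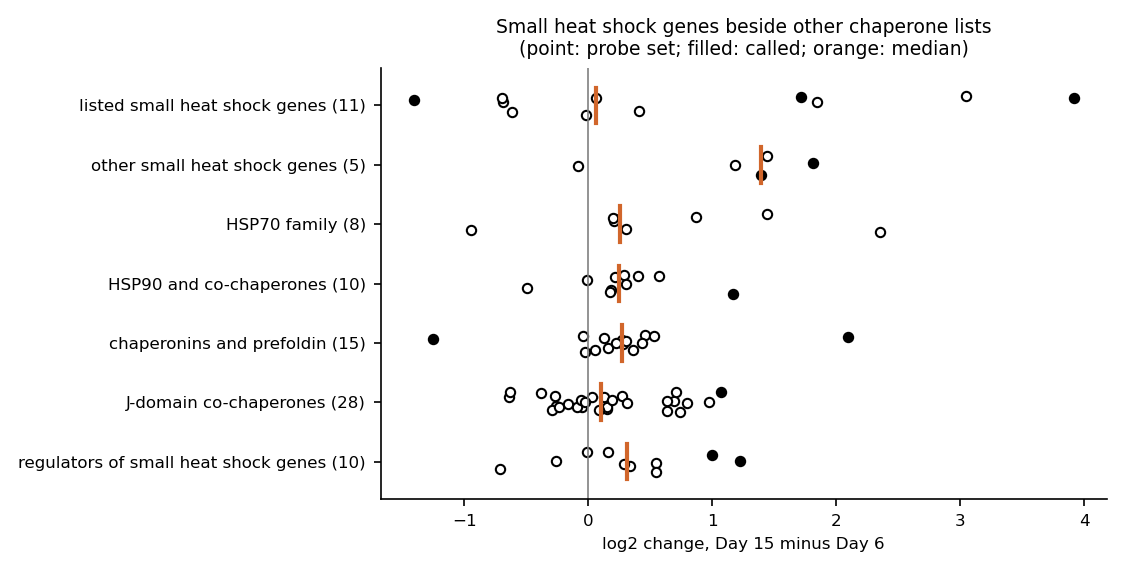
Change between Day 15 and Day 6 on the log2 scale for each tested probe set of the small heat shock genes and of the other chaperone and regulator lists, with 1 row of points for each list, its median as an orange line and filled points for those called. The small heat shock genes span -1.41 to 3.92, and of the HSP70 probe sets 0 are called, against 31.5% of all tested probe sets.

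For the 4 members with the widest range of age means, the genes with the most similar values over the 9 arrays were found by Pearson's r, as a description. For hsp-16.41 and hsp-16.2 the first was hsp-70 (r = 0.965 and 0.964), followed by fbl-1 (r = 0.964) and gpcp-1 (r = 0.963) for hsp-16.41, and by nrde-2 (r = 0.946) and gpcp-1 (r = 0.944) for hsp-16.2. For hsp-12.6 they were gpx-8, a glutathione peroxidase gene, Y57A10A.29 and the tetraspanin gene tsp-1, with r of 0.996, 0.996 and 0.994. Before Day 15 hsp-12.6, gpx-8 and tsp-1 had means under 4, near the background, so their r rest largely on the step at Day 15. Y57A10A.29 changed by 0.89 between Day 15 and Day 6. For hsp-12.1 the most similar genes were got-1.2, an aspartate aminotransferase gene, dbd-20 and the C-type lectin gene clec-57, with r of 0.998, 0.997 and 0.997. The 9 points of each r are 3 arrays of each of 3 ages, normalized together.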

How the data were processed

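RNA of 9 whole-worm samples was amplified, hybridized to GeneChip arrays and normalized by the authors with GCRMA, whose version is not given in the sources used here. The deposited table holds log2 expression values for each probe set on each array. Neither the authors' filter on present calls (MAS5) nor their centring of genes on their mean was applied here. Of the probe sets, 77 were controls and were left out. The array's annotation, which can be old, gave 1 gene to 20766 probe sets, several to 887 and none to 972, and symbols were updated through the RefSeq gene table (assembly WBcel235), which held all 10 members.

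For the differences, lmFit and eBayes of limma 3.58.1 were run in R 4.3.3 with 6 residual degrees of freedom and Benjamini-Hochberg adjustment over the 15452 probe sets tested, and the procedure was tested on simulated data. Tables were made with pandas 2.3.3 and numpy 2.4.6, and figures with matplotlib 3.10.9, in Python 3.11.15. Where a called gene named with its change had a mean under 4, the change or fold with all lower values raised to 4 is also given, as a lower bound.

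The members, gene lists and tests were chosen with earlier results of these data known. The genes named are all members, the regulators, other small heat shock genes, at most 2 called genes of each chaperone list with the largest change between Day 15 and Day 6, and for 4 members the 3 genes most like them. The HSP70 genes named and single genes named as examples of marker lists fall outside this rule. The HSP70 genes were chosen after their values were seen. Alternatives concerned the filter, which arrays were fitted, 1 probe set per gene, scaling, variance model, threshold, test, floor and array weights, took the replicate number as a block, and left out arrays.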

Additional observations from a re-analysis of the deposited data

How the results depend on the processing

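Each of the 33 changes of the 11 probe sets was recomputed under up to 24 alternatives, and 16 kept their direction and their side of the threshold under all of those run. Between Day 15 and Day 6, 5 probe sets in place of 3 were called with only the arrays of those ages in the fit, with the methods' t-test before adjustment, with array weights and with the replicate block, and 2 to 5 when 1 array at a time was left out. Between Day 6 and L4, 7 were called, 5 with the methods' t-test after adjustment, 6 with values under 4 set to 4, and 7 to 8 with 1 array left out. Between Day 15 and L4, 9 were called, 5 with the methods' t-test after adjustment, and 7 to 10 with 1 array left out. The share called over all tested probe sets moved as well, from 31.5%, 52.9% and 58.1% in the same comparisons. Between Day 15 and Day 6 it was 31.5% to 35.4% in the settings named first. With the methods' t-test after adjustment it was 42.8% between Day 6 and L4, and 48.3% between Day 15 and L4. With values under 4 set to 4 it was 47.8% between Day 6 and L4. With 1 array left out it was 29.1% to 33.5%, 49.4% to 56.2% and 55.7% to 60.7%. The change of hsp-16.41 between Day 6 and L4, not called at 0.45, turned to -0.03 with values under 4 set to 4, and ranged from -0.42 to 1.97 with 1 array left out, at -0.42 without L4 replicate 2, -0.21 without L4 replicate 3 and -0.05 without Day 6 replicate 1. That of hsp-17 in the same comparison, not called at 0.14, ranged from -0.13 to 0.42, at -0.12 without L4 replicate 2 and -0.13 without Day 6 replicate 3. The cause was not tested.

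Across all tested probe sets, deviations of same-numbered arrays from their age means correlated with r of -0.05 to 0.20, with 1 of 9 pairs over 0.1. Differently numbered arrays had r of -0.225 to 0.159, with 1 of 18 pairs over 0.1, so the numbers were not taken to pair the samples. These r cover all tested probe sets and do not settle pairing for single genes. hsp-16.2 and hsp-16.41 were highest on the array numbered 1 at every age. With the replicate block, 5 probe sets were called between Day 15 and Day 6, the added ones being hsp-16.2 (adjusted p = 0.0427) and hsp-16.41 (adjusted p = 0.0126), and the counts of the other comparisons were 7 between Day 6 and L4 and 9 between Day 15 and L4. Over all tested probe sets that block called 31.5% between Day 15 and Day 6, 53% between Day 6 and L4, and 58.1% between Day 15 and L4. Signal limits hsp-12.6 before Day 15 and hsp-12.1 at Day 15, which lie near the background, and sip-1 in adults, which lies near the top of the scale.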

Other observations

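Chaperonin and prefoldin genes, whose proteins fold actin and tubulin among other clients, were mostly not called between Day 15 and Day 6. Of 15 tested, 1 rose and 1 fell, with a median change of 0.27. cct-3, a subunit of the cytosolic chaperonin, rose to 7.72 at Day 15, against 5.63 at Day 6 (2.09, SE 0.23, adjusted p = 0.000102), while hsp-60, the mitochondrial chaperonin, fell to 6.77 at Day 15, against 8.02 at Day 6 (-1.25, SE 0.35, adjusted p = 0.0172). Of 28 genes tested for J-domain proteins, which bring clients to HSP70, dnj-3 alone was called between Day 15 and Day 6, with a rise of 1.07 (SE 0.19, adjusted p = 0.00176), while 6 rose and 3 fell between Day 6 and L4. Over all tested probe sets 31.5% were called between Day 15 and Day 6 and 52.9% between Day 6 and L4.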
